A study of Mus musculus with 77 samples.

Results

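The p53 regions of Trem2 knockout (T2KO) mouse lung are the stretches of DNA where the authors' peak caller found the transcription factor p53 after chromatin immunoprecipitation and sequencing (ChIP-seq) of whole lung from T2KO mice. They are the union of the 2 deposited peak lists of these lungs, with intervals merged where they overlap by at least 1 bp. The union held 311 regions, of 10646 when all 10 peak lists of the series are merged in the same way. The T2KO hyperoxia list contributed 134 regions and the T2KO room-air list 179. Of these, 132 were in the hyperoxia list alone, 177 in the room-air list alone and 2 in both.

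The T2KO hyperoxia pups were kept in 75% oxygen from their first day until postnatal day 14, and the T2KO room-air pups were raised in room air to the same age. C57BL/6J (B6) and DBA lungs had the same pair of exposures, and bone marrow-derived macrophages of T2KO and B6 mice were cultured for 24 h in high oxygen or in room air. The T2KO mice were a bought strain whose deleted sequence and background the labels do not describe. Lungs were flushed with saline and frozen whole, so every cell type of the organ is in each sample. Each peak list pools 2 p53 ChIP samples, so the regions have no replicate error. RNA sequencing of lung gave 4 T2KO hyperoxia, 4 T2KO room-air, 3 B6 hyperoxia and 4 B6 room-air libraries. The labels do not say whether each sample is a separate animal, so p-values measure the spread between these libraries.

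Trem2 is a receptor of macrophages and related myeloid cells. p53 binds DNA as a tetramer, at a pair of short half-sites with the core CATG or a close relative, and switches on genes that stop the cell cycle (Cdkn1a), remove p53 itself (Mdm2) or promote cell death (Bax, Bbc3). Mdm2 keeps the protein low in unstressed cells, and DNA damage or oxidative stress lets it build up. In newborn lung, prolonged high oxygen damages DNA and is known to raise p53 target genes while alveoli are still forming.

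Sequence was at hand for the 8 regions that overlap a RefSeq promoter window (250 bases before to 50 after a transcript start, build GRCm38.p6, which has the coordinates of mm10). Those bases were searched on both strands for the p53 full site, taken as 2 copies of the p53 half-site consensus with at most 2 mismatches in all and at most 13 bases between them. A full site was found in 3 of the 8 regions. Across all 32851 RefSeq promoter windows, 1342 (4.09%) hold such a site, and 867 (2.64%) hold one in the 201 bases up to the start, which is the length of a peak interval. The sequences below come from the overlapping bases of 5 regions, without those from the transcript start onward, which leaves 127 of 177 overlapping bases for Cdkn1a and 63 of 113 for Ei24. They were chosen to show the strongest region of both exposures, the 2 recurrent regions at known p53 targets and 2 room-air regions with and without a site. Capitals mark a full site, or an exact half-site where there is no full site.
Both exposures, chr1:155056274-155056442, plus strand: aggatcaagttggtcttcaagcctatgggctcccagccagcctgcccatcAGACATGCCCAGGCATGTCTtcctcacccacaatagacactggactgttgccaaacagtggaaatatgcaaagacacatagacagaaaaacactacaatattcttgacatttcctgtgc
Hyperoxia, upstream of Cdkn1a, chr17:29090852-29090978, plus strand: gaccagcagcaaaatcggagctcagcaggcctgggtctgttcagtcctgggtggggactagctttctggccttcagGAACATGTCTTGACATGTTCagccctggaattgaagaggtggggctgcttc
Hyperoxia, start of Ei24, chr9:36797335-36797397, minus strand: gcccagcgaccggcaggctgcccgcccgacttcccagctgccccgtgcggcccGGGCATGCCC
Room air, Tmem167b promoter, chr3:108562585-108562716, minus strand: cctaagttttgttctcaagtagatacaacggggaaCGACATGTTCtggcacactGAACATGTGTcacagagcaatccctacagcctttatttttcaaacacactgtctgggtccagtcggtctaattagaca
Room air, Gramd2 promoter, chr9:59707387-59707481, plus strand: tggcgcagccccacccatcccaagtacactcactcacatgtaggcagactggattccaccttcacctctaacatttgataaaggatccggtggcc

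The site of the chromosome 1 region, chr1:155056324-155056343, matched the consensus with 0 mismatches and no spacer, and its middle lay 8 bp from the middle of the region. The Cdkn1a stretch belongs to the promoter window of a transcript that starts upstream of the one in the expression table. Its site, chr17:29090928-29090947, had 1 mismatch and no spacer and lay 14 bp from the middle of its region. Sites without a spacer are rare among promoters, where 107 windows (0.326%) hold one. The Tmem167b site was of the looser kind, with 2 mismatches and a 9-base spacer. In the Ei24 region 1 exact half-site was found and no full site within the 113 bases searched, of which 63 are printed. No full site was found in the searched bases of the regions at Fam110c (201 bases, the whole region), Zmym5 (75), Tmco4 (68) or Gramd2 (95), which says only that these letters do not occur there.

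The peaks were few and mostly weak. A score is the authors' tag count of a peak scaled to 10 M (mega) tags and rounded, and 264 of the 311 regions (84.9%) had a highest score of 6 or 7, at the floor of the lists. That floor was 14 tags per peak in either list. Of the hyperoxia-only regions, 36 of 132 scored 8 or more and 15 scored 10 or more, with a highest score of 22. Of the room-air-only regions, 9 of 177 scored 8 or more, and none scored above 9. Scores were normalised separately, so they rank peaks within a list and do not measure a change between lists.

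Peaks took a small share of each library. In the T2KO hyperoxia list 2242 of 21.2 M tags (0.0106%) lay in peaks, and in the T2KO room-air list 2538 of 21.4 M (0.0119%). The same share was 0.0237% in B6 hyperoxia lung and 0.00871% in B6 room-air lung, while it was 0.246% in T2KO hyperoxia macrophages and 0.229% in T2KO room-air macrophages. Before the comparison with input DNA the caller had 2161 candidate peaks in T2KO hyperoxia lung and 1969 in T2KO room-air lung. The input comparison removed 93.3% of them in T2KO hyperoxia lung and 89.9% in T2KO room-air lung, against 66.3% in B6 hyperoxia lung and 80.2% in B6 room-air lung. The B6 lists rest on 33.0 M tags in hyperoxia and 30.4 M in room air, and the DBA lists on 11.1 M in hyperoxia and 3.99 M in room air, which sets how weak a peak each list could hold.

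**Figure D1:**
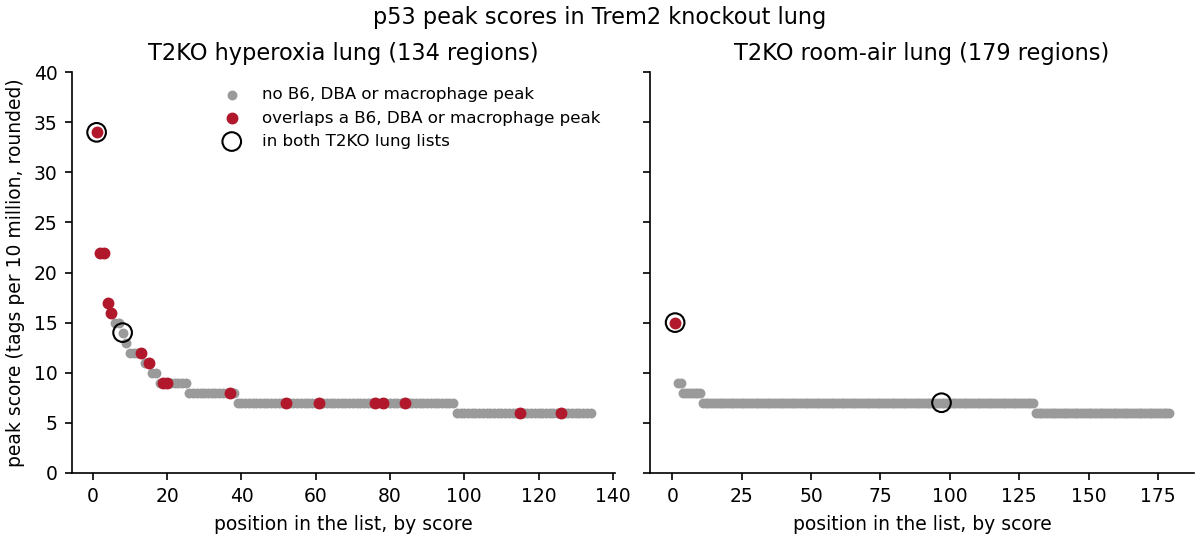
Peak score (tags per 10 M, rounded) against position in the list for the T2KO hyperoxia list (left, 134 regions) and the T2KO room-air list (right, 179 regions). Red points overlap a B6, DBA or macrophage peak and circled points are the 2 regions of both lists, of which the chromosome 1 region scores 34 and 15. Most points lie at 6 or 7, and red points lie mainly at the left end of the hyperoxia list.

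The 2 regions of both exposures were of different kinds. The region at chr1:155056210-155056442 had the highest score of either list, 34 in T2KO hyperoxia and 15 in T2KO room air. It also overlapped a peak in 7 of the 8 other lists, all but DBA room-air lung. It was first in B6 hyperoxia lung and in both B6 macrophage lists, and shared the first place by score with the Klhdc4 region in B6 room-air lung and with the Sergef region in DBA hyperoxia lung. It was at position 3 in T2KO hyperoxia macrophages and at position 30 in T2KO room-air macrophages. It overlaps the RefSeq promoter window of Gm51651 but lies in no gene of the expression table, 26.9 kb from the nearest listed start site, that of Gm9530, and within 50 kb of Ier5, an immediate early response gene that stress induces. The second region, chr9:116324497-116324700, had a score of 14 in T2KO hyperoxia and 7 in T2KO room air and overlapped no peak of any other list. It lies 135 kb from the nearest listed start site, that of Gm4668.

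Regions found again in another genotype or cell type came from the hyperoxia list. Of the 134 hyperoxia regions 17 (12.7%, exact Clopper-Pearson 95% interval 7.57 to 19.5%) overlapped a peak of at least 1 of the 8 B6, DBA and macrophage lists. Of the 179 room-air regions 1 (0.559%, interval 0.0141 to 3.07%) did, and it was the chromosome 1 region that is also in the hyperoxia list. None of the 177 room-air-only regions did. The 17 regions are called recurrent. The intervals treat regions as independent draws and cover counting error only.

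Recurrence went with the score within the hyperoxia list. Of the 13 regions with a score of 12 or more, 6 (46.2%) recurred, of the 25 with a score of 8 to 11, 4 (16%), and of the 96 with a score of 6 or 7, 7 (7.29%). The list shared most with B6 hyperoxia lung, at 14 regions (10.4% of the T2KO hyperoxia regions and 5.96% of the B6 list), and with B6 hyperoxia macrophages, at 15 (11.2% and 0.429%). Overlap was 3 regions with B6 room-air lung (2.24% and 2.04%), 4 with DBA hyperoxia lung (2.99% and 2.42%) and 0 with DBA room-air lung. T2KO hyperoxia macrophages shared 9 (6.72% and 0.682%) and T2KO room-air macrophages 2 (1.49% and 0.158%). B6 room-air macrophages shared 11 (8.21% and 0.268%), the third largest overlap. The T2KO macrophage ChIP samples are T2KO by title while another label field gives C57BL/6J, and per the file headers their peaks were called against B6 macrophage input.

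The B6 hyperoxia lung peaks that overlapped a T2KO hyperoxia region were mostly high in the B6 list. Of the 20 B6 hyperoxia peaks with the highest scores 10 (50.0%) overlapped a T2KO hyperoxia region, of the next 30 there was 1 (3.33%), of positions 51 to 100 there were 3 (6.0%), and of the remaining 135 there were 0. Within a genotype the exposures shared 2 regions in T2KO lung (1.49% of the hyperoxia and 1.12% of the room-air list), 8 in B6 lung (3.4% of the hyperoxia and 5.44% of the room-air list) and 2 in DBA lung (1.21% of the hyperoxia and 0.784% of the room-air list). In T2KO macrophages the figure was 49 (3.71% of the hyperoxia and 3.88% of the room-air list), and in B6 macrophages 298 (8.51% of the hyperoxia and 7.26% of the room-air list).

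After chromosome 1, the recurrent regions with the highest scores near a start site lie at Klhdc4, Cdkn1a, Trp53cor1 and Ei24. The Klhdc4 region, chr8:121832676-121832876, 3207 bp upstream of the start of this kelch-domain gene, scored 22 and was in 7 other lists. The Cdkn1a region, chr17:29090852-29091052, also scored 22, lies 2817 bp upstream of the listed start and was in 4 others. Trp53cor1, the long noncoding RNA lincRNA-p21, had a region over its start (chr17:29078941-29079141, score 16, 4 other lists) that lies 11.9 kb from the Cdkn1a region. The Ei24 region, chr9:36797197-36797397, covers the start of a gene for a membrane protein of the endoplasmic reticulum known as p53-induced; it scored 12 and was in 3 others.

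Weaker recurrent regions had low scores in T2KO lung but were peaks elsewhere. Inside Zmat3, which encodes an RNA-binding zinc finger protein and p53 target, chr3:32364228-32364428 scored 9 and was in 5 other lists, although the nearest listed start is that of the noncoding gene 4930429B21Rik, 1161 bp away. Snhg15, a host gene of small nucleolar RNAs, had a region at chr11:6527201-6527401 with a score of 7 in 4 other lists. Eda2r, a receptor of the tumour necrosis factor family, had one at chrX:97376441-97376641, 668 bp after its start, with a score of 8 in 2 others. The region at chr7:102479374-102479574, 1572 bp from Olfr543 and within 50 kb of Rrm1, the large subunit of ribonucleotide reductase, scored 9 and was in 2 others.

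The remaining recurrent regions lie farther from a listed start. The region inside Sergef, chr7:46602146-46602346, had a score of 17 and was a peak in B6 hyperoxia, B6 room-air and DBA hyperoxia lung but in none of the 4 macrophage lists. The others were at 1700029H14Rik (score 11, 4 other lists), inside Sh3bgrl2 (7, 4), 49.7 kb from Xiap, an inhibitor of caspases (6, 4), 15.5 kb from Cd38, an enzyme that breaks down NAD (7, 2), and at 1700020N01Rik (7), Angptl2 (7) and Zc3h12a (6) with 1 list each.

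**Figure D2:**
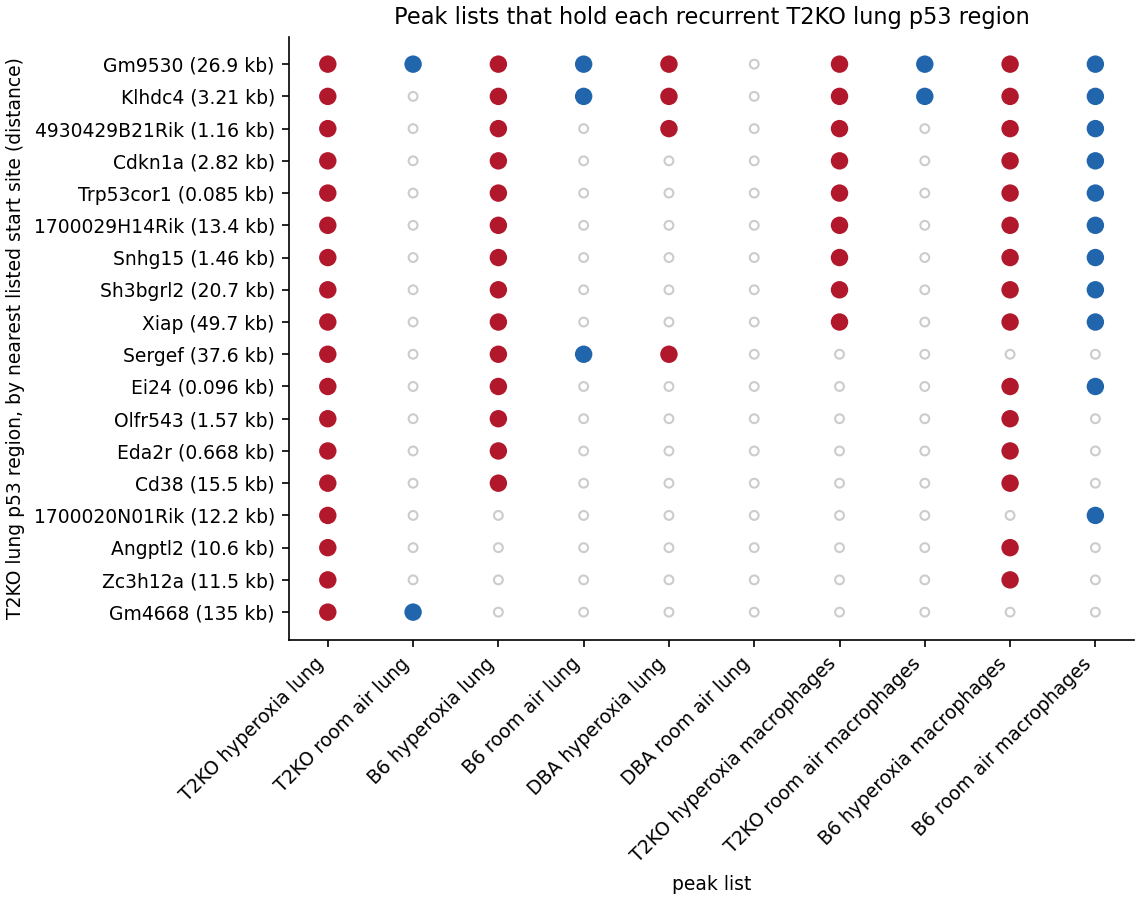
Each row is a T2KO lung p53 region that is in both T2KO lung lists or in another list, named by its nearest listed start site with the distance, and each column is a peak list. Filled circles mark an overlap of at least 1 bp, red for hyperoxia and blue for room air. The chromosome 1 region near Gm9530 and the Klhdc4 region fill 7 of the 8 other lists, and the room-air column of T2KO lung holds only the 2 regions of both exposures.

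The remaining 116 hyperoxia and 177 room-air regions were each in 1 list only, beside the second region of both exposures. Among unshared hyperoxia regions the highest scores were 15 at chr11:113748917-113749117, inside Cdc42ep4, an effector of the small GTPase Cdc42, and 15 at chr8:121346929-121347129, 195 kb from a listed start. Next were chr5:74974164-74974364 with 13, and 12 each at Plin4, a lipid droplet protein, inside Lamc1, a laminin chain, and 12.2 kb from Mgp, the matrix Gla protein. The highest room-air-only scores were 9 near the starts of Aftph, a trafficking protein, and inside Zmynd8, a chromatin reader. Scores of 8 followed 1481 bp from Ccl11, the chemokine eotaxin, and 383 bp from Gramd2. Regions just at the floor are many: 264 of 311 lie at 6 or 7, and no peak below 6 is listed.

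A larger share of the hyperoxia regions lay near a start site. A listed start site was within 10 kb of the middle of 51 of 134 hyperoxia regions (38.1%) and 43 of 179 room-air regions (24.0%), and within 1 kb of 20 hyperoxia (14.9%) and 17 room-air regions (9.5%). In B6 lung 35.3% of the hyperoxia and 32.7% of the room-air peaks lay within 10 kb, and 12.3% and 15.6% within 1 kb. In DBA lung 28.5% of the hyperoxia and 24.7% of the room-air peaks lay within 10 kb. The same shares were 26.9% and 22.2% in T2KO macrophages and 28.1% and 30.9% in B6 macrophages. The median distance was 19.1 kb for hyperoxia-only and 38.2 kb for room-air-only regions. Inside a listed gene lay 52.2% of hyperoxia and 48.6% of room-air regions. Each of the 94 regions within 10 kb was given its nearest start, and 94 genes resulted, of which 86 passed the filter of at least 1 TPM in at least 3 libraries.

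TPM is a read count scaled for transcript length and library total. Estimated reads per library were 20.48 to 29.49 M in T2KO hyperoxia, 18.46 to 29.67 M in T2KO room air, 23.41 to 29.95 M in B6 hyperoxia and 23.18 to 41.09 M in B6 room air. All 12 lung markers were present, with summed TPM of 36000 to 41800 in T2KO hyperoxia and 35000 to 41500 in T2KO room air. Of the 12, Hopx, Marco and Foxj1 rose and Cdh5, Pecam1 and Pdgfra fell in T2KO hyperoxia; Pdgfra, a marker of fibroblasts, had 25.9 to 41.1 TPM in hyperoxia and 104 to 130 TPM in room air. Red blood cell markers summed to 2090 to 2680 TPM in T2KO hyperoxia and 4040 to 4830 TPM in T2KO room air, while heart markers, at 31.4 to 111 TPM in T2KO hyperoxia and 37.0 to 209 TPM in T2KO room air, overlapped. None of the 3 red blood cell markers passed the test. Their summed level was 555 to 1380 TPM in B6 hyperoxia and 281 to 4890 TPM in B6 room air. In whole lung, fewer cells of a type and less RNA per cell cannot be told apart, and the part these markers play in the results below was not tested.

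The targeted gene did not check the labels. Trem2 had 1.97, 2.67, 1.96 and 2.23 TPM in T2KO hyperoxia and 1.13, 1.05, 2.75 and 1.45 TPM in T2KO room air, against 8.47, 5.97 and 9.85 TPM in B6 hyperoxia and 3.36, 3.45, 3.73 and 2.14 TPM in B6 room air. A value over the whole transcript cannot show a small deletion. T2KO macrophages still had 252 and 243 TPM in hyperoxia and 236 and 239 TPM in room air. The p53 gene itself, Trp53, had 46.6, 37.1, 39.1 and 42.1 TPM in T2KO hyperoxia and 34.3, 35.6, 33.4 and 36.1 TPM in T2KO room air. These groups did not overlap, but the change did not pass the test (log2FC of 0.23, limma adjusted p = 0.131).

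Fold changes are differences of log2(TPM + 1), tested with limma and adjusted over all 15614 genes tested, and a gene is called at an adjusted p under 0.05. Of these genes 3079 (19.7%) were called in T2KO hyperoxia against T2KO room air, with 1657 (10.6%) higher and 1422 (9.11%) lower. Of the 86 genes at T2KO lung regions 26 (30.2%) were called, 14 higher (16.3%) and 12 lower (14.0%), with a median log2FC of -0.03 against 0.01 over all genes. Among T2KO libraries of the third date code in the column names (4 hyperoxia, 2 room air), which all T2KO hyperoxia libraries carry, 18 of 85 region genes (21.2%) were called, against 2147 genes (14.1%) of all tested there.

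Most genes at recurrent regions rose. Of the 8 genes within 10 kb of a region shared with another list, 7 (87.5%) were higher in T2KO hyperoxia and 0 lower, with a median log2FC of 0.75. Of the 40 tested genes at unshared hyperoxia regions 5 (12.5%) were higher and 4 (10.0%) lower (median -0.05), shares close to those of all genes, 10.6% and 9.11%. Of the 38 tested genes at room-air regions 2 (5.26%) were higher and 8 (21.1%) lower (median -0.09). In B6 5 of the 8 recurrent genes (62.5%) were higher in hyperoxia and 0 lower (median 0.64), against 16.6% and 26.0% of all genes. The share of the recurrent genes that rose stands on 8 genes, and no test of it was made. The regions of Cdkn1a and Trp53cor1 lie 11.9 kb apart, so these genes are not separate cases. The T2KO calls of Klhdc4 and 4930429B21Rik were lost without some single libraries.

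**Figure D3:**
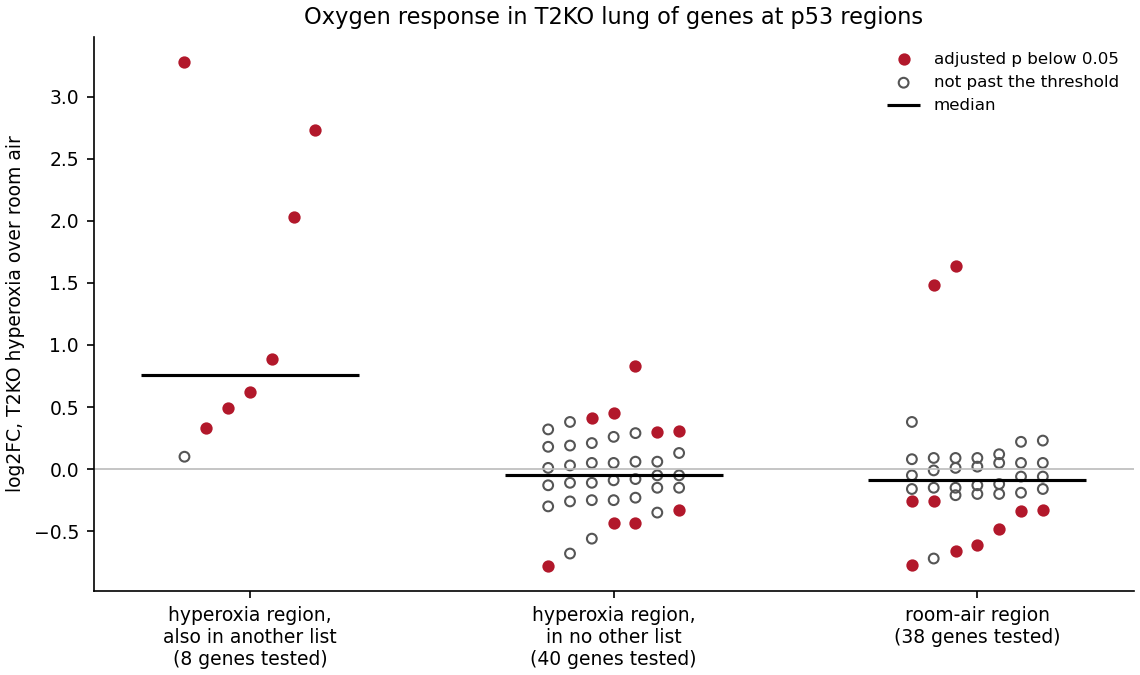
Log2 fold change of T2KO hyperoxia over T2KO room air for the 86 tested genes at regions, in 3 columns: hyperoxia regions also in another list (8 genes), hyperoxia regions in no other list (40) and room-air regions (38). Filled points passed the limma test and the bar is the median of each column, at 0.75, -0.05 and -0.09.

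Cdkn1a, which encodes the cell-cycle inhibitor p21, had 248, 275, 284 and 243 TPM in T2KO hyperoxia, against 36.0, 35.1, 38.3 and 46.0 TPM in T2KO room air. Every hyperoxia library was above every room-air library, and the log2FC was 2.73 ± 0.11 (SE; limma adjusted p = 5.26e-10). Eda2r had 19, 21.4, 16.6 and 18.4 TPM in T2KO hyperoxia, against 1.26, 0.932, 0.871 and 1.10 TPM in T2KO room air. Its groups were also far apart, and its log2FC of 3.28 ± 0.13 (SE; limma adjusted p = 6.72e-10) was the highest among the region genes. The peak beside it scored 8, against 22 for that of Cdkn1a.

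Snhg15 had 14.4, 16.7, 13.2 and 13.3 TPM in T2KO hyperoxia, against 3.69, 2.03, 1.75 and 4.09 TPM in T2KO room air (log2FC of 2.03, limma adjusted p = 3.30e-06). Its neighbouring peak scored 7, the median score of the T2KO hyperoxia list, and the expression groups did not overlap. Zmat3 had 25, 26, 27.3 and 25.8 TPM in T2KO hyperoxia, against 8.75, 8.27, 8.15 and 7.29 TPM in T2KO room air (log2FC of 1.57, limma adjusted p = 5.92e-08), again without overlap. The region inside it was assigned to 4930429B21Rik, which had 1.08, 0.6, 1.53 and 1.55 TPM in hyperoxia and 0.405, 0.775, 0.343 and 0.162 TPM in room air. Those groups overlap, and the log2FC of 0.62 (limma adjusted p = 0.0378) lost its call without any 1 of 6 of the 8 T2KO libraries (0.52 to 0.63). Counting is not stated to use strand, so reads of the 2 neighbours may not be separable.

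Trp53cor1 had 2.18, 1.98, 1.76 and 2.15 TPM in T2KO hyperoxia, against 0.633, 0.714, 0.165 and 1.14 TPM in T2KO room air. The groups did not overlap (log2FC of 0.89, limma adjusted p = 0.00254), at a low level where the added 1 shrinks the fold change. Ei24 had 93.7, 100, 93.1 and 100 TPM in T2KO hyperoxia, against 73.7, 64.8, 71.3 and 65.0 TPM in T2KO room air (log2FC of 0.49, limma adjusted p = 0.00131). In T2KO hyperoxia it was the most abundant of the shared-region genes after Cdkn1a, and in T2KO room air its mean was above that of Cdkn1a (68.7 and 38.9 TPM). Its groups were also apart. Klhdc4, beside a peak with a score of 22, had 26.3, 25.7, 26.6 and 25 TPM in T2KO hyperoxia, against 17.0, 22.4, 22.6 and 19.9 TPM in T2KO room air. Its log2FC of 0.33 (limma adjusted p = 0.0283) was no longer called with the date code as a term (0.27), or without any 1 of 5 T2KO libraries (0.25 to 0.34). Olfr543, an olfactory receptor of a large gene family, was under 1.3 TPM in the T2KO libraries and was not called (0.10, limma adjusted p = 0.81).

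**Figure D4:**
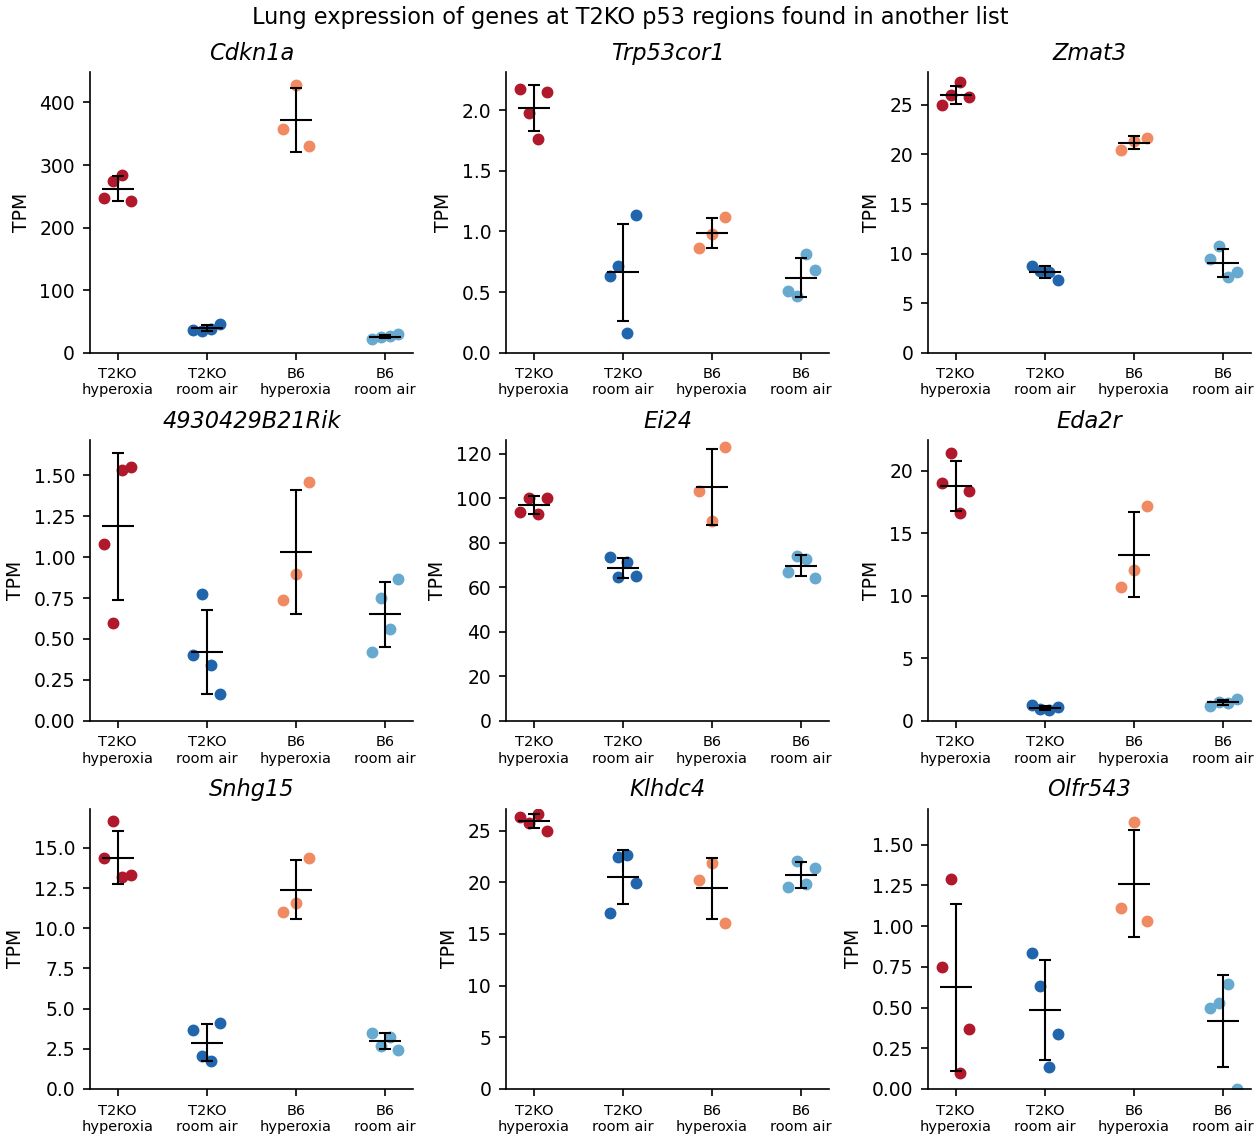
TPM in each lung library for the 8 genes assigned to a recurrent region, and for Zmat3, which contains the region assigned to 4930429B21Rik. Points are libraries and bars are the mean ± SD of T2KO hyperoxia (n = 4), T2KO room air (n = 4), B6 hyperoxia (n = 3) and B6 room air (n = 4). For Cdkn1a, Eda2r, Snhg15, Zmat3, Ei24, Trp53cor1 and Klhdc4 the T2KO hyperoxia points lie above all T2KO room-air points.

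Of the 9 shared regions with no listed start within 10 kb, 7 had a tested nearest gene, of which 2 rose and 0 fell. Over all genes tested 10.6% rose and 9.11% fell. Sh3bgrl2, a small thioredoxin-fold protein, had 17.1, 17.7, 15.4 and 17.1 TPM in T2KO hyperoxia, against 8.70, 8.17, 7.73 and 7.35 TPM in T2KO room air (log2FC of 0.99, limma adjusted p = 1.24e-06), and its rise was larger than in B6 (difference 0.65, limma adjusted p = 8.49e-04). Sergef, with the lung-only peak, had 4.74, 5.11, 5.41 and 5.49 TPM in T2KO hyperoxia, against 3.14, 3.30, 4.08 and 2.41 TPM in T2KO room air. Neither pair of groups overlapped, but the Sergef call (log2FC of 0.56, limma adjusted p = 0.0163) was lost with the date code as a term (0.57) and without T2KO room-air replicate 4 (0.46). Ier5, beside the strongest region, had 40.6, 39.9, 42.8 and 41.9 TPM in T2KO hyperoxia and 26.2, 38.3, 40.6 and 33.4 TPM in T2KO room air, and was not called (0.27, limma adjusted p = 0.171). Rrm1, a gene near the Olfr543 region that was chosen after its values were seen, had a log2FC of 0.65 (limma adjusted p = 4.05e-05).

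Genes at other regions moved both ways. Ak1, an adenylate kinase, lies 8429 bp from a room-air region with a score of 7. It had 53.9, 66.5, 56.6 and 65.7 TPM in T2KO hyperoxia, against 21, 25.2, 23.2 and 15.9 TPM in T2KO room air (log2FC of 1.48, limma adjusted p = 7.53e-07), with no overlap. Ccl11, at a room-air region, had 29.4, 10.1, 6.0 and 3.06 TPM in T2KO hyperoxia and 3.14, 2.53, 2.02 and 1.30 TPM in T2KO room air. The groups overlap, and the log2FC of 1.64 (limma adjusted p = 0.0234) came to 1.10 and was not called without T2KO hyperoxia replicate 1, the highest library. It was also not called without T2KO hyperoxia replicate 2 (1.59) or room-air replicate 4 (1.48), or with the date code as a term (1.91). Adora1, the adenosine A1 receptor, and Wwp1, a ubiquitin ligase, both at hyperoxia regions, had log2FC of 0.83 and 0.45 and were called. Tmem167b, whose room-air region holds the looser full site, was not called in T2KO (-0.01, limma adjusted p = 0.914). It rose in B6 (0.28, limma adjusted p = 0.00377), and the difference was called (-0.29, limma adjusted p = 0.0304).

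Of the 12 genes that fell in T2KO hyperoxia, 8 were at room-air and 4 at hyperoxia regions. Map4k2, a kinase at a hyperoxia region, had 20.2, 15.4, 19.7 and 17.4 TPM in T2KO hyperoxia, against 29.8, 34.3, 30.4 and 32.8 TPM in T2KO room air (log2FC of -0.78, limma adjusted p = 6.83e-05). Ecm2, an extracellular matrix protein beside a room-air region, had 17.5, 18.9, 18.8 and 18.1 TPM in T2KO hyperoxia, against 26.5, 31.2, 34.6 and 36.8 TPM in T2KO room air (log2FC of -0.77, limma adjusted p = 2.34e-04). Neither gene's groups overlapped. Zmynd8, at the room-air region with a score of 9, and Cdc42ep4, at the hyperoxia region with a score of 15, had log2FC of -0.61 and -0.43. Cyyr1 (-0.66), Cd101 (-0.48), Zfp579 (-0.43), Rit1 (-0.34), Casc3 (-0.33) and E4f1 (-0.33) were also called, and of these 6 only Rit1 kept its call with the date code as a term, where the log2FC of the others was -0.49 for Cyyr1, -0.51 for Cd101, -0.42 for Zfp579, -0.29 for Casc3 and -0.36 for E4f1.

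The responses were then set beside B6, whose own oxygen contrast called 6662 genes (42.7%), 2595 (16.6%) higher and 4067 (26.0%) lower in hyperoxia. Of the 86 region genes 41 (47.7%) were called in B6, 19 higher and 22 lower, and in the first date code alone (3 B6 hyperoxia, 2 B6 room air) 29 of 82 (35.4%) were called, against 28.9% of all genes tested there. The test of the difference, the T2KO change minus the B6 change, called 3955 genes (25.3%), 2553 (16.4%) more positive and 1402 (8.98%) more negative in T2KO. Of the region genes 22 (25.6%) were called, 10 more positive and 12 more negative, a share close to the background. Under quantile normalization 33.3% rather than 45.5% of the called region genes were more positive in T2KO, and 50.9% rather than 64.6% of all called genes. For the B6 response of the region genes the share higher was 58.5% under quantile normalization and 46.3% otherwise. T2KO libraries are all male, while 1 B6 hyperoxia and 2 B6 room-air libraries are female. The date codes are unevenly spread over the groups. The first holds B6 libraries only, the second 2 T2KO room-air and 2 B6 room-air libraries, and the third T2KO libraries only. Those 2 B6 room-air libraries of the second code are the female ones, so sex and date code cannot be told apart in that group. The column names do not say what the code dates. With it as a term 19 region genes (22.1%) were called for the difference, against 3210 (20.6%) of all genes.

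Cdkn1a rose less in T2KO. B6 hyperoxia lungs had 357, 428 and 330 TPM and B6 room-air lungs 22.1, 24.6, 26.8 and 29.3 TPM, so the log2FC was 2.73 in T2KO and 3.80 in B6 (difference -1.07 ± 0.15 SE, limma adjusted p = 2.00e-04). Both ends of the Cdkn1a change differed. Every T2KO room-air library (35.1 to 46.0 TPM) was above every B6 room-air library. Every T2KO hyperoxia library (243 to 284 TPM) was below every B6 hyperoxia library. These differences between the genotypes within an exposure were not tested. Eda2r rose more in T2KO: B6 hyperoxia lungs had 10.7, 12.1 and 17.2 TPM and B6 room-air lungs 1.22, 1.51, 1.42 and 1.73 TPM (difference 0.77 ± 0.20 SE, limma adjusted p = 0.0104), a call lost in males alone (0.57). The Trp53 transcript itself differed, with 28.1, 24.7 and 19.2 TPM in B6 hyperoxia and 41.5, 39.9, 34.6 and 34.3 TPM in B6 room air (difference 0.87, limma adjusted p = 8.67e-04). Cdkn1a and Eda2r, which both have a recurrent peak, thus differed from B6 in opposite directions. Among the shared-region genes Snhg15 (0.28), Ei24 (-0.09), Trp53cor1 (0.59) and 4930429B21Rik (0.32) had differences that did not pass the test, and Klhdc4 (0.43, limma adjusted p = 0.0414) passed it but lost its call with the date code as a term (0.38).

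Other region genes with a called difference were more positive in T2KO for Ak1 (1.18), Dusp10 (1.14), a phosphatase of MAP kinases, Tfcp2 (0.79), a transcription factor, Pigu (0.70), of the enzyme that attaches lipid anchors, and S1pr2 (0.45), a sphingosine 1-phosphate receptor. Dusp10, Tfcp2, Pigu and S1pr2 fell in B6 and were not called in T2KO. Gpr157 (-1.88), an orphan receptor, Fbxo31 (-1.05), a ubiquitin ligase subunit, Adora1 (-0.96), Cdc42ep4 (-0.83) and Gramd2 (-0.80) were more negative in T2KO. Gpr157 had 3.52, 2.60, 3.28 and 3.52 TPM in T2KO hyperoxia, 3.62, 4.73, 4.30 and 4.91 TPM in T2KO room air, 11, 12.2 and 11.4 TPM in B6 hyperoxia and 4.48, 3.79, 2.21 and 3.25 TPM in B6 room air. It rose in B6 and did not pass the test in T2KO. Cdc42ep4 went opposite ways, with a log2FC of -0.43 in T2KO and 0.40 in B6, both called.

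**Figure D5:**
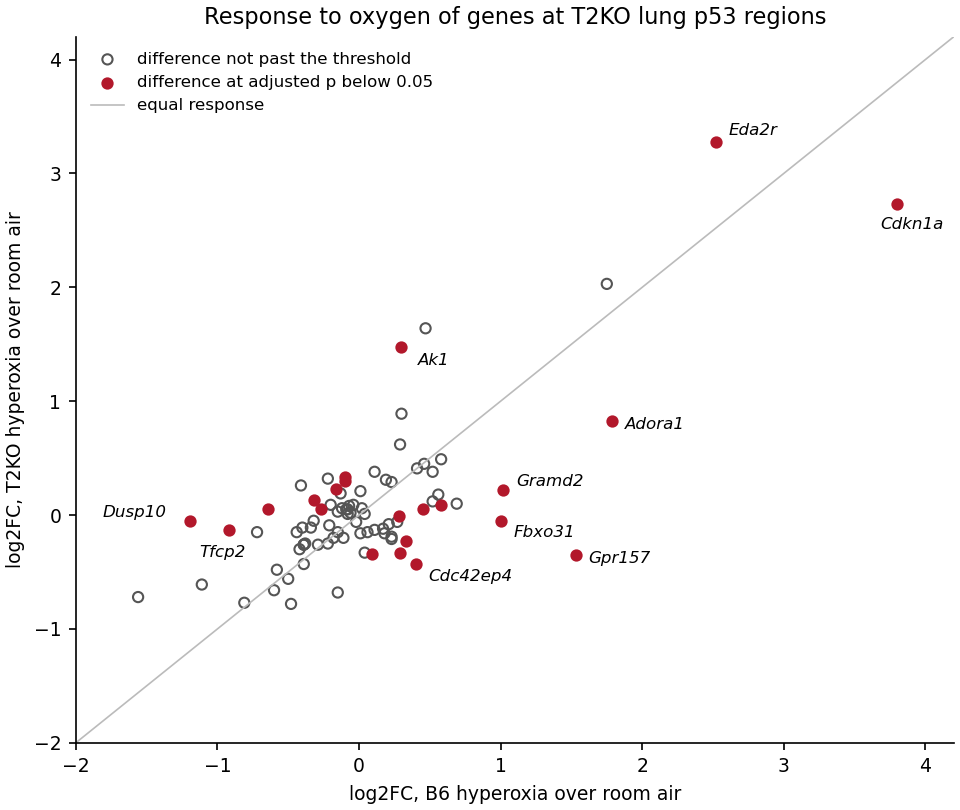
Log2 fold change of hyperoxia over room air in T2KO lung (vertical axis) and in B6 lung (horizontal axis) for the 86 tested genes at T2KO lung regions. Filled points passed the limma test of the difference and the line marks an equal response. Cdkn1a and Gpr157 lie below the line at differences of -1.07 and -1.88, and Ak1, Dusp10 and Eda2r above it at 1.18, 1.14 and 0.77.

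A list of 40 known p53 targets shows how much of the programme the T2KO lung regions cover. Of the 40, 4 (Cdkn1a, Zmat3, Eda2r and Ei24) had a T2KO hyperoxia peak within 10 kb and 0 had a T2KO room-air peak, even within 50 kb. The same count was 7 in T2KO hyperoxia macrophages and 0 in T2KO room-air macrophages, 13 in B6 hyperoxia lung and 2 in B6 room-air lung, 2 in DBA hyperoxia lung and 0 in DBA room-air lung. The B6 macrophage lists held the most, with 23 in hyperoxia (3500 peaks) and 15 in room air (4107 peaks). The T2KO macrophage lists held 1320 peaks in hyperoxia and 1263 in room air, and the B6 hyperoxia lung list held 235. All 4 targets of the T2KO list were also among the 13 of B6. The 9 targets with a B6 hyperoxia lung peak and no T2KO lung region were Mdm2, Plk2, Bax, Bbc3, Aen, Trp53inp1, Phlda3, Ckap2 and Ephx1. Of these, Mdm2, Bax and Bbc3 had a T2KO hyperoxia macrophage peak within 10 kb.

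Most targets of the whole list rose in T2KO hyperoxia, with a T2KO lung region nearby or without one. Of 39 tested targets 25 (64.1%) were higher and 2 (5.13%) lower in T2KO hyperoxia, against 10.6% and 9.11% of all genes, with a median log2FC of 0.63. In B6 27 (69.2%) were higher and 4 (10.3%) lower, against 16.6% and 26.0% of all genes, with a median of 0.75. Of the 9 targets with a B6 hyperoxia lung peak and no T2KO lung region, 8 were higher in T2KO and 0 lower (median 1.12). Mdm2, the ubiquitin ligase that removes p53, had 73.0, 80.2, 71.2 and 76.2 TPM in T2KO hyperoxia, against 54.9, 47.8, 43.8 and 46.6 TPM in T2KO room air (log2FC of 0.63, limma adjusted p = 6.35e-05). The groups did not overlap, and Bbc3, a cell-death gene, was the 1 of the 9 that did not pass (0.29, limma adjusted p = 0.196). Of the 26 tested targets with no peak within 10 kb in B6 hyperoxia lung or T2KO lung, 13 were higher and 2 lower. Those higher included Psrc1, a spindle protein (3.51), Gdf15, a secreted stress factor (2.21), Gtse1, a p53-binding protein (1.87), and Mgmt, a DNA repair enzyme (1.67). Psrc1, Gdf15, Gtse1 and Mgmt each had a B6 hyperoxia macrophage peak within 1 kb. Psrc1 also had a T2KO hyperoxia macrophage peak at 0.816 kb, and Gdf15 a B6 hyperoxia lung peak at 17.5 kb. The 2 that fell were Sesn1, a stress-induced sestrin (-0.70), and Tnfrsf21, a death receptor (-0.30). Of 39 targets the difference of responses was called for 11 (28.2%) more positive and 8 (20.5%) more negative in T2KO, against 16.4% and 8.98% of all genes.

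The same genes were listed in T2KO macrophages, with 2 libraries per exposure and no test made. Cdkn1a had 257 and 252 TPM in hyperoxia and 103 and 101 TPM in room air, Zmat3 had 31.2 and 34.1 TPM in hyperoxia and 17.2 and 18.3 TPM in room air, and Trp53cor1 had 3.28 and 4.4 TPM in hyperoxia and 1.35 and 1.66 TPM in room air. Ier5 had 83.8 and 82.5 TPM in hyperoxia and 54.8 and 53.3 TPM in room air. Eda2r differed from lung, with 0.546 and 0.539 TPM in hyperoxia and 1.21 and 0.751 TPM in room air. Ei24 had 50.7 and 52.2 TPM in hyperoxia and 51.0 and 49.7 TPM in room air, values that overlap.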

How the data were processed

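Peak lists and expression tables were used as deposited. Per the file headers, a peak score is the number of tags that HOMER counted in it per 10 M (mega) tags of the pooled ChIP samples, and peaks passed a false discovery rate of 0.001, 4-fold over input and 4-fold over the local 10000 bp. Bowtie2, STAR, HOMER and mm10 are named in the submitters' processing notes; no version of them is given in the sources used here. Lung and macrophage TPM were computed by the authors and hold 24940 transcripts, with starts taken from the lung table. Estimated reads come from TPM multiplied by transcript length, within a tolerance of 0.15 of whole multiples. Macrophage columns of other genotypes (8) were not used.

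Intervals were merged at 1 bp overlap and written from 1. A gene was given to a region where its start was the nearest, within 10 kb of the middle. log2(TPM + 1) was fitted with limma 3.58.1 (R 4.3.3) with a variance trend and 1 mean per group, over genes with at least 1 TPM in at least 3 libraries, with Benjamini-Hochberg adjustment. Python 3.11.15, pandas 2.3.3, numpy 2.4.6 and matplotlib 3.10.9 did the rest. On simulated data for T2KO hyperoxia against room air (15354 genes), 96 of 100 genes changed by a log2 of 1 and 100 of 100 changed by 2 were recovered, with 15 false calls. Only genes with a mean log2(TPM + 1) above 2 were changed, and the simulated noise held no date-code or sex effect. Recovery of weaker genes, or under such effects, was not tested. Named genes were Trem2, Trp53, Cdkn1a and Mdm2, those at regions of both exposures or of high score, those called with the largest changes or differences, and p53 targets with a region or a call; genes nearest to shared regions beyond 10 kb were added after their values were seen. Members and gene lists were chosen with earlier results of these data known. The alternatives tried were a minimum fold, each library left out, date code or sex, quantile normalization, a pseudocount of 0.1, no low-value filter, other distances, overlaps, score thresholds and site rules.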

Additional observations from a re-analysis of the deposited data

Results flagged for a closer look

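In 6 of 138 groups of 4 libraries checked over 52 genes, 1 library lay far from the other three; chance gives about 1 in 20. These were Adora1 (4.95 TPM) and Fbxo31 (9.32 TPM) in T2KO hyperoxia, Tfcp2 (12.3 TPM) and Mgmt (2.15 TPM) in T2KO room air, and Mdm2 (46.2 TPM) and Map4k2 (28.6 TPM) in B6 room air.

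For 21 of these genes the response to hyperoxia differed between T2KO and B6 in the limma test of the difference (T2KO change minus B6 change, log2). It was more positive in T2KO for Ak1 (1.18), Dusp10 (1.14), Psrc1 (1.11), Trp53 (0.87), Tfcp2 (0.79), Gdf15 (0.79), Eda2r (0.77), Pigu (0.70), Sh3bgrl2 (0.65), S1pr2 (0.45), Klhdc4 (0.43) and Zmat3 (0.41). It was more negative for Gpr157 (-1.88), Cdkn1a (-1.07), Fbxo31 (-1.05), Adora1 (-0.96), Cdc42ep4 (-0.83), Gramd2 (-0.80), E4f1 (-0.62), Rit1 (-0.42) and Tmem167b (-0.29). Some of the 52 genes were chosen because their difference was called, so the 21 do not measure how common such a difference is. Over all 15614 genes tested, 3955 (25.3%) were called.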

How the results depend on the processing

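With a minimum absolute log2FC of 1 the calls among the 15614 genes tested came to 215 in T2KO, 898 in B6 and 782 for the difference. Of the 86 region genes tested, 5, 10 and 5 were called in the same order. Of the 8 shared-region genes 3 then rose in T2KO. In 1 date code alone B6 had 4351 calls. With starts within 1 kb (37 regions) the called region genes numbered 8, 15 and 10 of 35 tested for T2KO, B6 and the difference. Within 50 kb (195 regions) they numbered 44, 81 and 47 of 172 tested. Of all genes tested, 19.7%, 42.7% and 25.3% were called in the same comparisons. Leaving out each library gave 2112 to 2978 T2KO calls, 5632 to 6284 B6 calls and 3417 to 3903 for the difference. Of the 86 region genes 18 to 27, 33 to 40 and 17 to 23 were then called in the same order. Of the 8 shared-region genes 5 to 7 rose in T2KO. No named gene changed direction while called. In T2KO hyperoxia against room air, calls were lost for Klhdc4 without hyperoxia replicate 1, 2 or 3 or room-air replicate 1 or 4, 4930429B21Rik without hyperoxia or room-air replicate 1, 3 or 4 (0.52 to 0.63), Casc3 without hyperoxia replicate 1, 2 or 3 or room-air replicate 2 or 4 (-0.35 to -0.26), E4f1 without hyperoxia replicate 2, 3 or 4 or room-air replicate 2 or 4 (-0.34 to -0.27) and Cd101 without any 1 of the 8 (-0.51 to -0.45). For the difference, calls were lost for S1pr2 without B6 hyperoxia replicate 1 (0.37), Psrc1 without B6 hyperoxia replicate 1 (0.99) or 2 (1.03), Rit1 without B6 hyperoxia replicate 3 (-0.36), and Gdf15 (0.66 to 0.81), Zmat3 (0.33 to 0.43), Klhdc4 (0.31 to 0.46) and Tmem167b (-0.29 to -0.24) without several single libraries. In males alone E4f1 (-0.52), Rit1 (-0.46), Eda2r (0.57), Klhdc4 (0.47), Psrc1 (1.12) and Gdf15 (0.77) lost theirs, and with the date code as a term Klhdc4 (0.38), Psrc1 (1.09) and Gdf15 (0.82) did; the cause was not tested. Klhdc4 also lost it under quantile normalization (0.38), with no low-value filter (0.43) and with sex as a term (0.42), and Gdf15 under quantile normalization (0.64), a pseudocount of 0.1 (0.86) and no filter (0.79). The T2KO calls of Cd101 under quantile normalization (-0.47) or a pseudocount of 0.1 (-0.87), Casc3 with no filter (-0.33) and 4930429B21Rik in males (0.62) or 1 date code alone (0.78) were lost too. Overlap of at least 50% of an interval, chosen after seeing the data, left 15 recurrent regions and intervals within 500 bp gave 22. No paired analysis was possible because the numbers in the lung column names restart within date codes and carry no pairing. Peaks near 14 tags limit what either T2KO list could hold.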

Other observations

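Loosening overlap to 500 bp added 5 regions that lie close to a peak of another list. The Tmub2 hyperoxia region lay 84 bp from a B6 hyperoxia lung peak. The 4 others were room-air-only regions near B6 macrophage peaks, at Inpp4b (144 bp), Cog1 (275 bp), Ap1m1 (420 bp) and Gcc2 (469 bp).

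Neighbouring regions of the T2KO lung lists were rare. The closest pair, 6.31 kb apart at Fam207a, joins a room-air and a hyperoxia region. A pair of hyperoxia regions, with scores of 11 and 8, lies 11.7 kb apart upstream of Ptpn1, a tyrosine phosphatase, and neither is in another list. Chromosome 3 held 3 hyperoxia-only and 21 room-air-only regions.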
